A study of Mus musculus with 6 samples.

Results

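The transcripts described here are those of 42 genes of glycolysis and the hypoxia response, all of which were found in a table of 23337 genes measured in mouse basal cell carcinoma. They were chosen by gene symbol from what the genes are known to do, when earlier results of these data were already known. They comprised 4 glucose and lactate transporters and 20 glycolytic enzymes and regulators. The rest were 4 subunits and oxygen sensors of the hypoxia-inducible factors (HIF) and 14 other HIF target genes. All 42 were above the minimum mean of 10 normalized counts and were tested among 13671 genes. The tumour cells came from ear epidermis and were taken 6 weeks after tamoxifen, which was given to mice aged 4 weeks. Both groups carried R26-SmoM2/+ and K14CreER. SmoM2 is an activated form of Smoothened, the transducer of Hedgehog signals, and K14CreER is a tamoxifen-dependent recombinase that works in cells with an active keratin 14 promoter, so SmoM2 was switched on in keratin 14-expressing epithelium and cells of other types kept Yap. The 3 knockout libraries came from mice that were also Yapfl/fl, and the 3 wild-type libraries from mice without the floxed Yap alleles. Yap1 encodes YAP, the co-activator that binds TEAD factors and is held back by the Hippo kinases. The labels did not say whether a library was 1 animal or a pool, so the tests measure the spread between libraries, which may be technical.

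Glycolysis splits glucose into pyruvate, and lactate dehydrogenase turns pyruvate into lactate when it is not burned in mitochondria. When oxygen is scarce the prolyl hydroxylases no longer mark the HIF alpha subunits for destruction, and HIF then binds hypoxia response elements near genes of glucose uptake, glycolysis, blood vessel growth and acid handling. Epidermis is a tissue of modest oxygen supply, and basal keratinocytes are known for high glucose uptake through GLUT1, the product of Slc2a1.

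Library depth and composition were not alike. The deposited values corresponded to 23182921, 25179110 and 15572640 reads in knockout libraries 1 to 3 and 25260431, 22836259 and 15405490 in wild-type libraries 1 to 3. Yap1 had 591, 773 and 1764 normalized counts in the knockout libraries, all below the 5765, 6004 and 5573 of the wild-type libraries. Libraries 1 and 2 of both genotypes carried codes beginning with DM22 and library 3 of both a code beginning with DM24. Xist, the X-inactivation transcript, had 58654 and 59594 normalized counts in library 3 of knockout and wild type and at most 15.1 elsewhere, while the Y-linked Ddx3y had no read in either library 3. The code series, sex and depth cannot be told apart. Of 7 basal keratinocyte markers all were detected, at a summed 545004 to 567227 normalized counts in knockout and 485491 to 695051 in wild type. Markers of other cell types also moved. The 6 suprabasal keratinocyte markers in the table summed to 24848, 30590 and 103378 in knockout and 28380, 36436 and 45749 in wild type. The 7 fibroblast markers summed to 7188, 6183 and 1615 in knockout and to 5404, 9427 and 3242 in wild type. The neutrophil markers summed to 1992, 3581 and 30468 in knockout and 8179, 1555 and 24644 in wild type, with their defining receptor gene Csf3r at 0 and S100a8 and S100a9, which keratinocytes also make, in the list. Endothelial markers summed to 74.9 to 140 in knockout and 48.8 to 113 in wild type, with Emcn at 0. In bulk samples fewer cells of a type and less RNA per cell cannot be told apart.

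The 42 genes differed widely in level and together gave a small share of the RNA. They summed to 0.586%, 0.615% and 0.736% of all normalized counts in knockout and 0.595%, 0.559% and 0.641% in wild type. Per kilobase of annotated exon, the mean level over the 6 libraries was highest for the aldolase gene Aldoa (4067 normalized counts per kilobase), the pyruvate kinase gene Pkm (listed as Pkm2, its older symbol, so it is the gene and not the PKM2 isoform, 3533) and the lactate dehydrogenase gene Ldha (3478). They were followed by the triose-phosphate isomerase gene Tpi1 (2125), Slc2a1 (2001) and the carbonic anhydrase gene Car12 (1821). The lowest were Car9 (40.3), the neuronal-type glucose transporter gene Slc2a3 (11.1) and the enolase gene Eno1 (5.44). Enzymes that act one after another in the same pathway thus had listed levels that differed by orders of magnitude. Levels per kilobase used the length of all annotated exons of a gene together. This was 7597 bases for Car12, whose protein coding transcripts held 3821 different stretches of 50 bases. For Slc2a1 the numbers were 3506 and 3596. The order of genes by level and the ratios between related genes depend on this choice of length.

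Some of these genes share much of their sequence with other genes. Of the 50-base windows in its annotated transcripts, Eno1 shared 49.5% with another annotated gene, phosphoglycerate kinase gene Pgk1 68.0%, Gapdh 58.4%, Bnip3 59.1% and phosphoglycerate mutase gene Pgam1 41.5%. For Gapdh, the glyceraldehyde-3-phosphate dehydrogenase gene, 209 annotated pseudogenes were among the genes that shared windows. Gapdh had 385, 466 and 632 normalized counts in knockout and 591, 509 and 644 in wild type, below the 5370, 5350 and 6336 in knockout and 6334, 6233 and 5481 in wild type of Tpi1, which shared 6.83%. These 5 were the genes with over 40% of windows shared, whereas 24 of the 42 shared under 5% and 17 of them none. A low listed level was also found without shared sequence: 18 of the 42 genes had a mean at or below 221 normalized counts per kilobase, the level of Pgk1, and 11 of the 18 shared under 5%, such as Slc2a3 and P4ha2, which shared none. How reads that match several places were counted is not given in the sources used here. The part of shared sequence in these levels was not tested, and values of the 5 genes are uncertain.

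**Figure D1:**
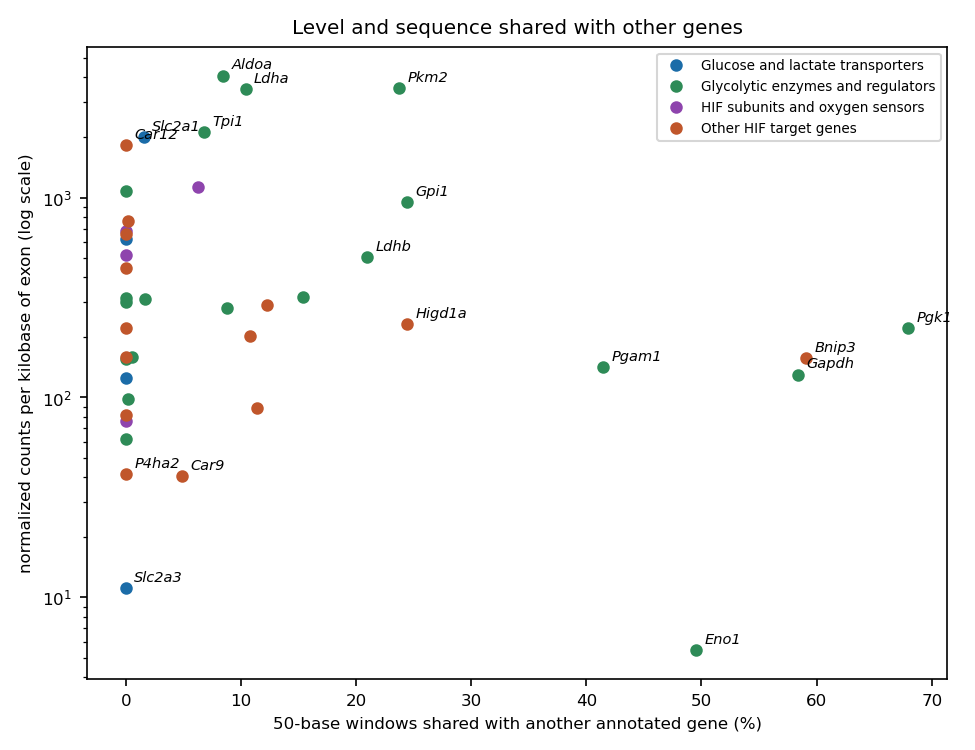
Mean level over the 6 libraries in normalized counts per kilobase of exon (vertical, log scale) against the percentage of 50-base transcript windows shared with another annotated gene (horizontal), 1 point for each of the 42 genes, coloured by role. The 5 genes at over 40% shared lie at or below 221 normalized counts per kilobase, as do 11 genes that share under 5%, and Pkm2, with 23.7% shared, lies at 3533.

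Between knockout and wild-type tumours the transcripts of glycolysis and hypoxia showed no common shift. Slc2a1, higher in knockout, was the one gene of the 42 that passed in any genotype fit to all 6 libraries. With limma on log2(normalized count + 1) and Benjamini-Hochberg adjustment over 13671 genes, 0 of 42 passed an adjusted p under 0.05, against 0% of all genes, and 1 of 42 (Slc2a1) had an unadjusted p under 0.05, against 5.55% of all genes. With edgeR the count was also 0 of 42, against 0% of all genes, of which 5.57% had an unadjusted p under 0.05. With the code series in the limma fit 6 of 42 had an unadjusted p under 0.05, against 11.3% of all genes, and none passed after adjustment. The log2 difference was above 0 for 21 genes (49.0% of all genes) and below 0 for 21, with a median of 0.0019, and the median of all tested genes was −0.0034. By role the median was −0.03 for transporters, −0.06 for enzymes and regulators, 0.12 for HIF subunits and oxygen sensors and 0.10 for the other HIF targets. The sign was below 0 for 14 of 20 enzymes and regulators and above 0 for 10 of 14 other HIF targets. Groups did not overlap for 4 genes of 42, against 11.0% of all genes, with Slc2a1, Pfkfb4 and Car12 higher in knockout (5.08% of all genes) and Ldhb lower (5.87%). All 3 same-numbered pairs had the same sign for 12 genes, against 32.6% of all genes, 7 higher (15.3%) and 5 lower (17.3%). The 7 were Slc2a1, Pfkfb3, Pfkfb4, Vegfa, Car12, Ero1l and Higd1a, and the 5 were Gapdh, Pgam1, Ldhb, Pdk1 and Adm.

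The size of any difference was bounded for most of these genes. In a limma fit that also held the code series, the 95% interval of the knockout-to-wild-type ratio lay within 1.5-fold in both directions for 32 of 42 genes, against 66.0% of all genes, and within 2-fold for 40, against 82.4%. Without the term the counts were 22 of 42 within 1.5-fold (58.7% of all genes) and 34 within 2-fold (77.2%). All 20 enzymes and regulators lay within 2-fold in both fits. These bounds are on listed values, and those of Gapdh, Pgk1, Pgam1 and Eno1, with over 40% of windows shared, are uncertain.

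**Figure D2:**
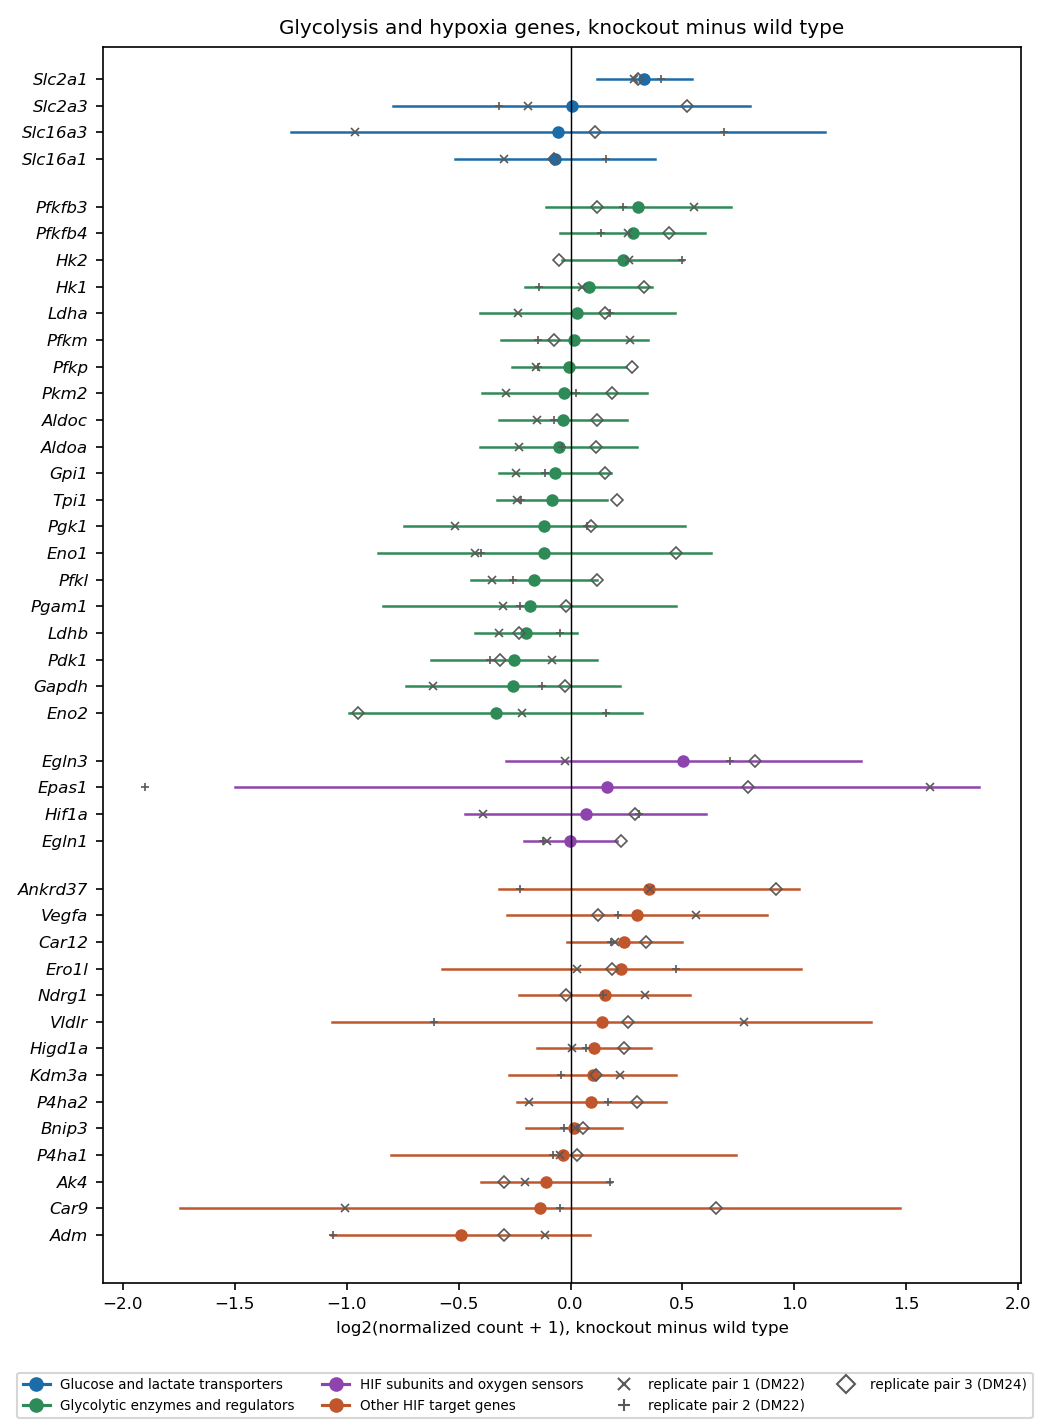
Log2 difference in normalized count + 1, knockout minus wild type, for each of the 42 genes by role (filled points, 3 libraries a group), with the limma 95% interval as a line and the 3 same-numbered pairs as open marks. The interval of Slc2a1 (0.12 to 0.54) is the one that leaves out 0, and the marks of the DM24 pair lie right of both DM22 pairs for most glycolytic enzymes.

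Among transporters, Slc2a1 stood at the highest level and was higher in the knockout. Slc2a1 encodes GLUT1, which carries glucose into keratinocytes (GRCm38 chromosome 4, 119108711 to 119137983, plus strand, protein coding). It had 7152, 8076 and 8209 normalized counts in knockout libraries 1 to 3, against 5885, 6112 and 6651 in wild-type libraries 1 to 3. Each knockout library was above every wild-type library. The means were 7812 ± 576 in knockout and 6216 ± 394 in wild type (SD, n = 3 each), a log2 difference of 0.33 ± 0.09 (SE) or 1.26-fold, and the same-numbered pairs gave 0.28, 0.40 and 0.30. The call depended on the tool: the adjusted p was 0.722 with limma, 0.753 with edgeR and 0.126 with DESeq2, 0.0495 with DESeq2 and the replicate numbers as a block, and 0.00587 with DESeq2 and the code series as a term. With limma and the series term it was 0.224. DESeq2 without a term called 0 of 42 (0.49% of all genes). DESeq2 with the block called 1 of 42 genes (1.24% of all genes) and with the series term 1 of 42 (2.22% of all genes, 0.761% higher), Slc2a1 in each. In the DM22 libraries alone limma called 0 of 42 (0.0146% of all genes) and DESeq2 0 of 42 (1.96%). With the series term the DESeq2 adjusted p of Slc2a1 was 0.0595 without knockout library 1, 0.651 without knockout library 2, 0.137 without knockout library 3, 0.279 without wild-type library 1 and 0.135 without wild-type library 3, and it passed only without wild-type library 2 (0.0252).

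The window before the Slc2a1 start is shown because it holds the core letters of the hypoxia response element. Searched were ACGTG and GCGTG on both strands, so that CACGT and CACGC also count and CACGTG counts on each strand. There were 59 windows of 250 bases before RefSeq starts of 39 of the 42 genes. Of these 45 (76.3%) held a core match, against 54.9% of 12306 windows of tested genes and 38.6% of all 32851. Windows of the same gene can overlap and repeat the same matches, as some of those of Ak4 do. HIF targets were part of the choice of genes, so the higher share is not a test. Slc2a3, Epas1 and Ndrg1 had no entry in the table used. A match is a stretch of letters and not a shown binding site. The Slc2a1 window, from RefSeq on GRCm38.p6, is chr4:119108495-119108744 on the plus strand, with the matches in capitals.
Slc2a1: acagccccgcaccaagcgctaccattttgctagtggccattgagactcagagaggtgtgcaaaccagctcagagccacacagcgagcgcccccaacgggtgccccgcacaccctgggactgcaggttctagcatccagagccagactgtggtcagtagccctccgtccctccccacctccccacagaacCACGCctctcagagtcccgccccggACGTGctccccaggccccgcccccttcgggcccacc

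The other transporters did not separate the genotypes. Slc2a3, which encodes GLUT3, had 80.3, 86.6 and 69.5 normalized counts in knockout and 91.6, 108 and 48.1 in wild type. Slc16a1, which encodes the lactate carrier MCT1, had 2250, 2558 and 3202 in knockout and 2764, 2288 and 3371 in wild type. Slc16a3, the gene of the lactate exporter MCT4, had 372, 567 and 1036 in knockout and 725, 352 and 959 in wild type. For both lactate carriers the third library was the highest of its genotype and the groups overlapped. Per kilobase, Slc16a3 stood at 0.138, 0.185 and 0.269 of Slc16a1 in knockout and 0.218, 0.128 and 0.237 in wild type.

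At the entry to glycolysis, hexokinases phosphorylate glucose. Hk2, the regulated hexokinase, had 7246, 7475 and 6090 normalized counts in knockout and 6053, 5299 and 6320 in wild type. The DM22 pairs put it higher in knockout, by 0.26 and 0.50 on the log2 scale, and the DM24 pair put it slightly lower, by −0.05. The log2 difference of 0.23 ± 0.11 (SE) had a limma adjusted p of 0.925. Hk1, the broadly expressed hexokinase, had 2710, 2676 and 2719 in knockout and 2614, 2948 and 2164 in wild type. Per kilobase the Hk2 level was 3.20 to 3.99 times that of Hk1 in knockout and 2.57 to 4.17 times in wild type, and these ranges overlapped.

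The phosphofructokinase step, which commits sugar to glycolysis, held small differences among its isoenzymes. Gpi1, the isomerase before it, had 5621, 5533 and 6817 normalized counts in knockout and 6662, 5982 and 6126 in wild type. Of the 3 phosphofructokinase genes, Pfkp had 3895, 4225 and 4608 in knockout and 4330, 4667 and 3807 in wild type, and Pfkl 1649, 1870 and 2203 in knockout and 2105, 2235 and 2028 in wild type. Both were lower in knockout in pairs 1 and 2 and higher in pair 3. Relative to Pfkl and per kilobase, Pfkp stood at 1.176, 1.126 and 1.042 in knockout and at 1.025, 1.040 and 0.935 in wild type, so each knockout library was above every wild-type library. It was the one ratio of 12 between related genes for which the groups did not overlap. The exon lengths used, 13401 bases for Pfkp and 6675 for Pfkl, set the size of this ratio but not the order of the libraries. By level, the groups did not overlap for 11.0% of all tested genes. With 3 libraries against 3 no exact permutation test can give a p below 0.1. Pfkm, the muscle isoenzyme gene, had 1069, 953 and 805 in knockout and 889, 1053 and 847 in wild type.

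Pfkfb3 and Pfkfb4, which set the level of the sugar phosphate that activates phosphofructokinase, were higher in knockout in every pair. Pfkfb3 had 1591, 1383 and 1038 normalized counts in knockout and 1084, 1175 and 956 in wild type. The 2 DM22 knockout libraries were above all wild-type libraries and the DM24 knockout library was not. Its log2 difference was 0.30 ± 0.17 (SE), with a limma adjusted p of 0.936. Pfkfb4 had 298, 324 and 376 in knockout and 249, 295 and 277 in wild type, so that the groups stood apart by a narrow margin. Its log2 difference was 0.28 ± 0.13 (SE), with a limma adjusted p of 0.925. Neither gene passed between the genotypes in any of the 3 tools.

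Further down the pathway the abundant enzymes overlapped between genotypes. Aldoa, which splits the sugar, had 10161, 10727 and 14138 normalized counts in knockout and 11931, 11003 and 13075 in wild type. Aldoc, the less abundant aldolase gene, had 515, 450 and 548 in knockout and 572, 474 and 505 in wild type. Pkm2 had 15451, 15948 and 21292 in knockout and 18872, 15690 and 18746 in wild type. Within each of these the genotypes overlapped, and the DM24 knockout library was the highest or second highest. Pgk1, the kinase of the first ATP-yielding step, had 367, 421 and 654 in knockout and 525, 400 and 614 in wild type. Pgam1 had 214, 214 and 369 in knockout and 264, 251 and 375 in wild type. Eno1 had 28.5, 22.3 and 32.9 in knockout and 38.7, 29.7 and 23.4 in wild type, and the enolase gene Eno2 had 501, 475 and 264 in knockout and 582, 425 and 511 in wild type. The DM24 knockout library had the lowest Eno2 of the 6.

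At the fate of pyruvate the genes did not move as one. Ldha, whose product makes lactate, had 9837, 10745 and 14411 normalized counts in knockout and 11586, 9514 and 12972 in wild type, a log2 difference of 0.03 ± 0.18 (SE). Ldhb, whose product favours the return of lactate to pyruvate, had 674, 768 and 774 in knockout and 842, 793 and 908 in wild type. Each knockout library was below every wild-type library for Ldhb, which shared 20.99% of its windows with another gene. Its log2 difference was −0.20 ± 0.09 (SE), and the limma adjusted p was 0.925. Pdk1, the kinase that keeps pyruvate out of the mitochondrial citrate cycle, had 2612, 2246 and 1836 in knockout and 2767, 2878 and 2286 in wild type. It was lower in knockout in each pair, by −0.08, −0.36 and −0.32, although knockout library 1 was above wild-type library 3. Its limma adjusted p was 0.961 without a term and 0.329 with the code series.

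**Figure D3:**
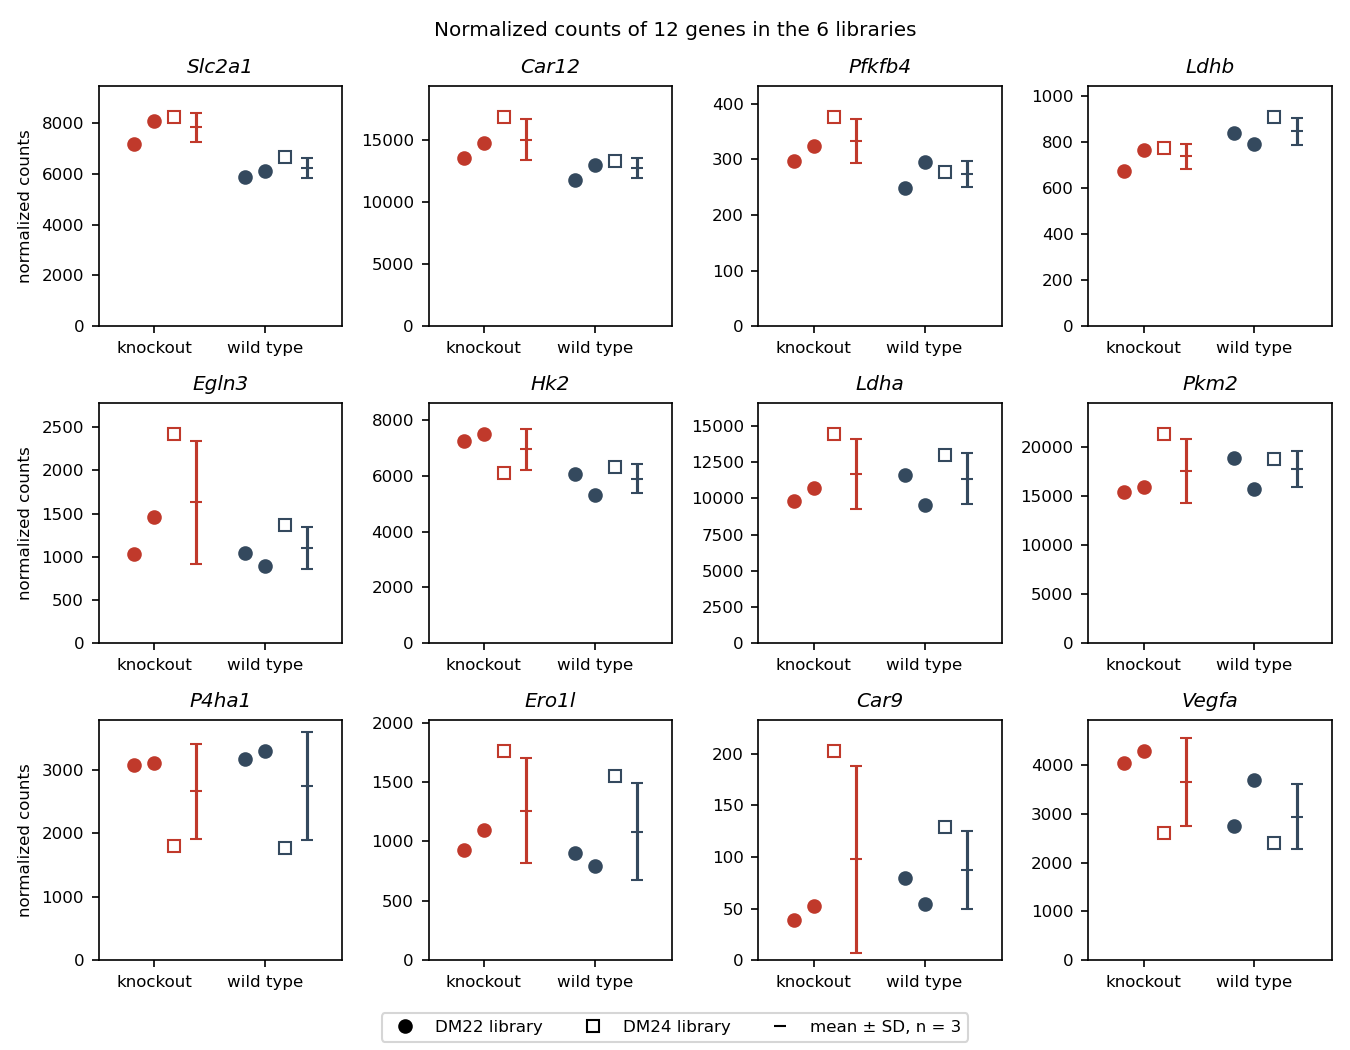
Normalized counts of 12 genes in each library, knockout left and wild type right in each panel, with DM22 libraries as filled circles, DM24 libraries as open squares and the mean ± SD of 3 libraries beside them. The genotypes do not overlap for Slc2a1, Car12, Pfkfb4 and Ldhb. The DM24 libraries stand apart from all DM22 libraries for P4ha1, Ero1l, Car9, Ldha and Vegfa.

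Among HIF subunits and oxygen sensors, Egln3 had the highest mean difference and no gene separated the genotypes. Hif1a, the oxygen-regulated subunit, had 5167, 6476 and 8851 normalized counts in knockout and 6777, 5238 and 7239 in wild type. Epas1, the related alpha subunit that is prominent in endothelium, had 465, 265 and 435 in knockout and 152, 995 and 251 in wild type. Wild-type library 2 was the highest of the 6 for Epas1 and wild-type library 1 the lowest, and the pairs gave 1.60, −1.90 and 0.79. The endothelial markers did not peak in that library, at 48.8, while the fibroblast markers did, at 9427. Their part in the Epas1 values was not tested. Egln1, the main prolyl hydroxylase, had 2323, 2323 and 2676 in knockout and 2499, 2528 and 2290 in wild type, a log2 difference of −0.0010 ± 0.0857 (SE). Egln3, a hydroxylase that HIF itself induces, had 1028, 1458 and 2418 in knockout and 1046, 890 and 1366 in wild type. Knockout libraries 2 and 3 were above all wild-type libraries and knockout library 1 was not, with a log2 difference of 0.50 ± 0.33 (SE) and a limma adjusted p of 0.967. The difference ran from 0.18 to 0.79 when 1 library was left out. DESeq2 with the series term gave it an adjusted p of 0.150 with all libraries and 0.00395 without knockout library 1.

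Of the HIF targets that handle acid, Car12 was abundant and Car9 scarce. The carbonic anhydrase genes Car12 and Car9 encode membrane enzymes that hydrate carbon dioxide outside the cell. Car12 had 13508, 14711 and 16778 normalized counts in knockout and 11768, 12972 and 13290 in wild type. Each knockout library was above every wild-type library, and the pairs gave 0.20, 0.18 and 0.34. Its log2 difference was 0.24 ± 0.11 (SE), with an adjusted p of 0.909 in limma and of 0.158 in DESeq2 with the series term, which became 0.0422 without wild-type library 2. Car9, one of the HIF targets with the strongest induction in hypoxic tumours, had 39.2, 52.8 and 202 in knockout and 79.9, 54.6 and 129 in wild type. The DM24 libraries were the 2 highest for Car9, and the genotypes overlapped.

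Neither of the vessel genes Vegfa and Adm passed between the genotypes in any fit to all 6 libraries. Vegfa, the main growth factor of blood vessels, had 4036, 4272 and 2607 normalized counts in knockout and 2741, 3685 and 2394 in wild type. It was higher in knockout in each pair, by 0.56, 0.21 and 0.12, with a log2 difference of 0.30 ± 0.24 (SE). Adm, which encodes the vasodilator peptide adrenomedullin, had 108, 93.2 and 128 in knockout and 117, 195 and 157 in wild type. It was lower in knockout in each pair, by −0.11, −1.06 and −0.30, with a log2 difference of −0.49 ± 0.24 (SE). Limma gave adjusted p values of 0.987 for Vegfa and 0.925 for Adm.

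The remaining HIF targets gave small or uneven differences. Bnip3, a receptor for mitochondrial removal, was the steadiest, at 353, 349 and 370 normalized counts in knockout and 348, 356 and 356 in wild type. Higd1a, a small mitochondrial membrane protein gene, had 695, 783 and 714 in knockout and 692, 747 and 606 in wild type. Ak4, a mitochondrial adenylate kinase gene, had 872, 930 and 904 in knockout and 1005, 823 and 1112 in wild type. None of these moved by more than the spread of the wild-type libraries. Kdm3a, a histone demethylase gene, had 4139, 4009 and 3204 in knockout and 3548, 4124 and 2958 in wild type. Ndrg1, a stress-responsive gene, had 1883, 1918 and 2205 in knockout and 1495, 1736 and 2236 in wild type. Vldlr, a lipoprotein receptor gene, had 2149, 1761 and 965 in knockout and 1258, 2687 and 808 in wild type, lowest in the DM24 library of each genotype. Ankrd37 had 181, 117 and 158 in knockout and 141, 137 and 83.2 in wild type. P4ha2, a collagen prolyl hydroxylase gene, had 227, 281 and 296 in knockout and 259, 250 and 241 in wild type, and overlapped between genotypes as Ankrd37 did.

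The contrast of the 2 code series gave more calls among these genes than that of genotype did. With genotype held in the fit and the 2 DM24 libraries set against the 4 DM22 libraries, limma called 3 of 42 genes at an adjusted p under 0.05, against 6.75% of all genes. Ero1l and Pgam1 were higher in the DM24 libraries (2.68% of all genes were called higher) and P4ha1 lower (4.07% lower). EdgeR also called 3 of 42, against 6.39% of all genes. DESeq2 called 17 of 42, against 15.0% of all genes, 11 higher in DM24 (6.77%) and 6 lower (8.27%). The sub-groups did not overlap for 19 of 42 genes, against 39.2% of all genes, with 12 higher (19.0%) and 7 lower (20.2%) in DM24. The share among these genes was close to the background for non-overlap in either direction and for the limma and edgeR calls. It was above the background for the DESeq2 calls. These shares were not compared by a test.

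P4ha1, the other collagen prolyl hydroxylase subunit gene, was lower in the DM24 libraries of both genotypes. It had 1803 and 1766 normalized counts in the DM24 knockout and wild-type libraries, against 3071 and 3116 in DM22 knockout and 3169 and 3292 in DM22 wild type. The DM24 libraries were far below every DM22 library. The log2 difference was −0.82 ± 0.06 (SE), with −0.78 within knockout and −0.87 within wild type, and the limma adjusted p was 0.0033. Ero1l, which encodes an oxidase that forms disulphide bonds in the endoplasmic reticulum, had 1758 and 1548 in the DM24 knockout and wild-type libraries, against 926 and 1097 in DM22 knockout and 907 and 792 in DM22 wild type. Both DM24 libraries were above all DM22 libraries. The log2 difference was 0.83 ± 0.10 (SE), with 0.80 within knockout and 0.87 within wild type, and the limma adjusted p was 0.0163. Between the genotypes the log2 difference of P4ha1 was −0.03 ± 0.32 (SE) and that of Ero1l 0.23 ± 0.33 (SE). For Pgam1, with the values given above, the log2 difference was 0.66 ± 0.11 (SE), with 0.78 within knockout and 0.54 within wild type, and the limma adjusted p was 0.0331. The number of these genes called ran from 0 without knockout library 3 to 11 without wild-type library 1. P4ha1 had an adjusted p of 0.0501 without knockout library 3 and passed without any other library. Ero1l was lost without knockout library 1 (0.0533), knockout library 3 (0.154) or wild-type library 3 (0.112). Pgam1 was lost without knockout library 1 (0.117), knockout library 2 (0.107), knockout library 3 (0.233) or wild-type library 3 (0.114), and passed without wild-type library 1 (0.0338) or 2 (0.0304).

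The windows before the starts of these 3 genes are shown because the genes differed between the sub-groups in opposite directions while each window held 3 matches to the hypoxia core, in capitals. They are chr10:59323046-59323295 (plus strand) for P4ha1, chr14:45318573-45318822 (minus strand) for Ero1l and chr19:41911621-41911870 (plus strand) for Pgam1, from RefSeq on GRCm38.p6.
P4ha1: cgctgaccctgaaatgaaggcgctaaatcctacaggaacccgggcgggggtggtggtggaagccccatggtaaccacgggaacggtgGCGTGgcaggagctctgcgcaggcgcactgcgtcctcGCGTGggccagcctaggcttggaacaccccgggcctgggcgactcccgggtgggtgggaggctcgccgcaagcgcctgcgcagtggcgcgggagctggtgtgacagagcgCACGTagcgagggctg
Ero1l: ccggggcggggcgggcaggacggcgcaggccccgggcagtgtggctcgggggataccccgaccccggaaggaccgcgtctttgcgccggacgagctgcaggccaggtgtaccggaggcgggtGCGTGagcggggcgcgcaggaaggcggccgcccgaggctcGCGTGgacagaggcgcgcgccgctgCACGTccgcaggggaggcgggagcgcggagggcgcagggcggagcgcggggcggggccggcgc
Pgam1: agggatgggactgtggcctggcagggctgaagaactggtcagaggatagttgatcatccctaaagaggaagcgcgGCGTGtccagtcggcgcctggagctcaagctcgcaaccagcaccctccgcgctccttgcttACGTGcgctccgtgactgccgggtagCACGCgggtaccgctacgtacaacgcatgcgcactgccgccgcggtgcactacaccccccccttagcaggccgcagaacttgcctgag

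By the DESeq2 calls, the 11 genes higher in DM24 were 2 of the 4 transporters (Slc16a1 and Slc16a3), 4 of the 20 enzymes and regulators (Aldoa, Pgk1, Pgam1 and Ldha), 2 of the 4 HIF subunits and oxygen sensors (Hif1a and Egln3) and 3 of the 14 other HIF targets (Car9, Ndrg1 and Ero1l). The 6 lower in DM24 were Pfkfb3, Pdk1, Vegfa, P4ha1, Kdm3a and Vldlr. The log2 difference of Car9 was 1.54 ± 0.34 (SE), with 2.13 within knockout and 0.95 within wild type, and its limma adjusted p was 0.0524. Vldlr had −1.10 ± 0.30 (SE), with −1.01 within knockout and −1.19 within wild type. The other HIF targets called were thus 3 higher and 4 lower. Of the 42 genes 29 had the same sign within knockout and within wild type, against 71.0% of all genes. The suprabasal and neutrophil marker sums given above were higher, and the fibroblast sum lower, in both DM24 libraries than in any DM22 library. The endothelial sum was 113 to 140 in DM24 and 48.8 to 84.9 in DM22, and the sebocyte sum 10276 to 10649 in DM24 and 6772 to 8252 in DM22. The adipocyte sum was 7.80 to 10.1 in DM24 and 0 to 2.52 in DM22. The part of these cell types in the differences was not tested.

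**Figure D4:**
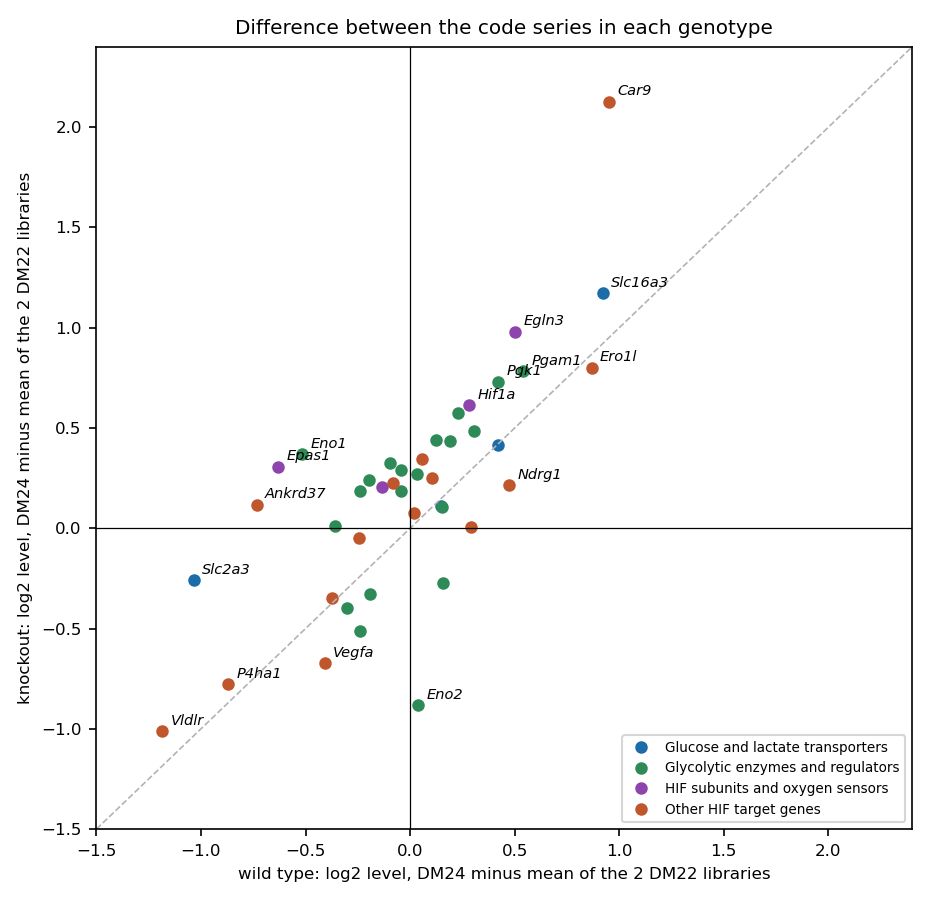
Log2 difference between the DM24 library and the mean of the 2 DM22 libraries in knockout (vertical) and in wild type (horizontal), 1 point for each gene coloured by role, with equality as a dashed line. P4ha1 and Vldlr lie low and Ero1l, Slc16a3 and Car9 high in both genotypes, while Eno2 is low in knockout alone, at −0.88 against 0.04 in wild type.

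The genotype difference itself ran in opposite directions in the 2 sub-groups for part of the pathway, without passing a test. Of the 20 enzymes and regulators, 7 were below 0 in pairs 1 and 2 and above 0 in pair 3, against 12.3% of all genes, and 1 showed the reverse, against 12.1%. The median pair difference of the enzymes was −0.23, −0.09 and 0.12 in pairs 1 to 3. A test of the genotype difference in DM24 against that in DM22 called 0 of 42 genes in limma, edgeR and DESeq2, against 0%, 0% and 0.263% of all genes. At an unadjusted p under 0.05 limma listed 6 of 42, against 5.47% of all genes, with Tpi1, Pfkl, Pfkp and Egln1 more positive and Hk2 and Eno2 more negative in DM24. Their limma adjusted p was 0.867 each. Tpi1 had the smallest unadjusted p of the 6, with a difference between sub-groups of 0.44 ± 0.11 (SE) on the log2 scale. Only 1 library of each genotype was DM24, so the spread in this test comes from the DM22 libraries alone. The DM24 knockout library also had 1764 normalized counts of Yap1, against 591 and 773 in the DM22 knockout libraries. Its suprabasal marker sum was 103378, against 45749 in the DM24 wild-type library. The part of either in the pair 3 differences was not tested.

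**Figure D5:**
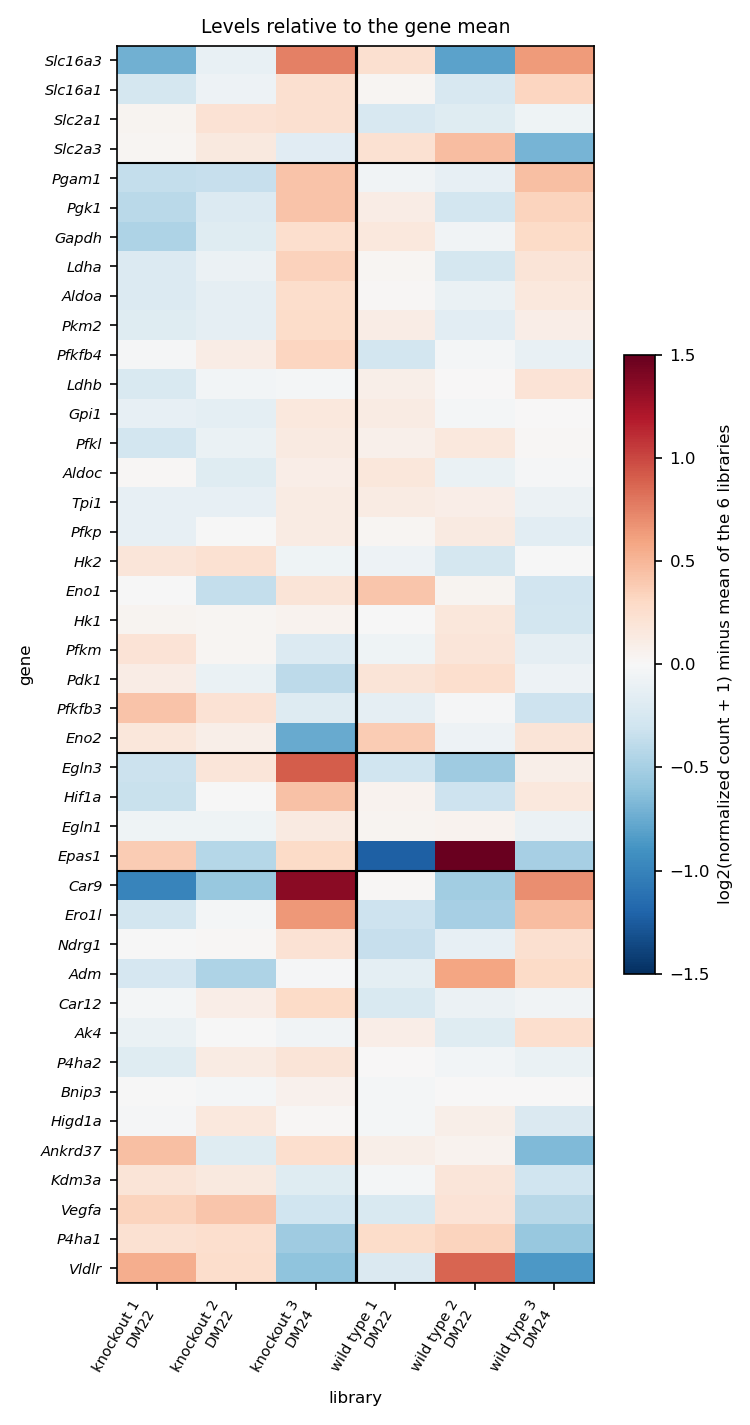
Log2(normalized count + 1) of each gene minus its mean over the 6 libraries (colour, from −1.5 in blue to 1.5 in red), with knockout libraries left and wild-type libraries right of the line, genes grouped by role and ordered by the DM24 minus DM22 difference. The third library of each genotype is red at the top and blue at the foot of most groups, and wild-type library 2 is the reddest for Epas1.

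Other genes of glucose use and oxygen sensing, and further HIF targets, were called in DESeq2 alone, and lower in knockout where called. Of 53 genes listed for other glucose metabolism, such as the pentose phosphate pathway, pyruvate dehydrogenase and glycogen, 42 were tested. Of these 30 were below 0, against 6967 of all 13671 tested genes, with a median log2 difference of −0.07. DESeq2 with the series term called 1 of these glucose metabolism genes, lower in knockout (1.46% of all genes). This was Pdk4, another pyruvate dehydrogenase kinase gene, with 75.8, 53.6 and 32.9 normalized counts in knockout and 224, 136 and 50.7 in wild type. Of 15 other oxygen sensing genes tested, DESeq2 with the block (0.819% of all genes lower) and with the series term called 1, again lower. It was Cited2, whose product competes with HIF for the co-activator p300, with 3491, 4014 and 1090 in knockout and 7264, 5066 and 3346 in wild type. Of 44 further HIF targets tested, 28 were below 0 with a median of −0.10, and all 3 pairs were below 0 for 14, against 17.3% of all genes. DESeq2 called 2 of the 44 lower with the block (Angptl4 and Edn1), against 0.819% of all genes, and 4 lower with the series term (Ddit4, Angptl4, Cxcr4 and Gadd45b), against 1.46%. Limma called none in these 3 lists between the genotypes. The 3 lists were chosen with earlier results of these data known, so their counts are not an independent test. Ddit4 was named because its values were seen, being the fifth by size of the genes called in this list. Cited2 and each of the 5 further targets named here were lower in both DM24 libraries than in the DM22 libraries of the same genotype.

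Genes that answer to tissue handling moved beside these values. All 26 tested immediate early and handling genes, such as Cyr61 (also a YAP readout), Hspa8, Dusp5 and Egr1, had a log2 difference below 0, knockout minus wild type. Of all 13671 tested genes 6967 were below 0. The median of the 26 was −0.63, and their medians in pairs 1 to 3 were −0.44, −0.55 and −1.10. DESeq2 with the series term called 15 of the 26 lower, against 1.46% of all genes. The list was chosen with earlier results of these data known, so its counts are not an independent test. The median DM24 minus DM22 difference of the 26 was −1.59. Their mean centred log2 level was 0.28, 0.15 and −1.49 in knockout and 0.67, 0.82 and −0.43 in wild type. Gadd45b, among the further targets called, is known as a stress gene as well. The part of handling in the glycolysis and hypoxia values was not tested.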

How the data were processed

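Libraries from mouse basal cell carcinoma cells were made with the unstranded TruSeq RNA kit v2, per the labels' protocols. The submitters' processing notes name STAR 2.5, DESeq2 1.18.1 and the build mm10 (GRCm38). The counting tool, annotation, strand setting and any filter are not given in the sources used here. The labels' growth protocol allows a later harvest too, and the stage label of each sample gives 6 weeks. The authors deposited 1 table of 23337 genes in 6 libraries whose unit is a signal, read counts divided by a size factor per library. This was checked: 100% of values were whole multiples of 1 step per library (tolerance 0.001), and those whole reads were recovered for the count tools. A count of 3 reads, the limit that 0 reads allow, is 2.47 to 3.90 normalized counts, covering counting error alone.

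The 13671 genes whose mean reached 10 normalized counts were tested with limma 3.58.1 (R 4.3.3; trend, robust) on log2(normalized count + 1), a scale that understates changes of low genes, 3 against 3, two-sided, with Benjamini-Hochberg adjustment. EdgeR 4.0.16 (quasi-likelihood) and DESeq2 1.42.0 on the recovered reads, alone, with the replicate block or with the code series (the first letters of the sample codes), were alternatives. Deviations from the group means correlated by 0.333, 0.327 and 0.694 in same-numbered pairs, all above 0.1, so replicate numbers were treated as pairs. Knockout 1 correlated best with wild type 2 (0.505), and knockout 2 with wild type 1 (0.260) was also above 0.1. Library 3 was DM24 in both genotypes, so these values cannot tell the numbering within DM22 from the code series. The pairing of libraries 1 and 2 thus rests on the numbers in the labels. The labels give no shared animal or batch.

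The 42 genes, the other lists and the markers were chosen with earlier results of these data known. Any of the 42 may be named. From other lists genes called in a fit are named, at most 4 a list, apart from Ddit4, which was added after its values were seen. Gene coordinates and shared windows are from GENCODE M21, promoters from RefSeq.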

Additional observations from a re-analysis of the deposited data

How the results depend on the processing

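For the genotype difference, limma called 0 genes, and DESeq2 called 67, with the replicate block 169 and with the code series 303. With the DM22 libraries alone limma called 2 and DESeq2 268. Leaving out 1 library gave 0 to 500 genes over limma and DESeq2. Of the 42 genes 0 were called by limma, and 1 by DESeq2 with the replicate block and 1 with the code series, and 0 to 3 when 1 library was left out; the replicate block changed no other call among them. The 3 called without wild-type library 2 were Slc2a1, Epas1 and Car12. For DM24 against DM22, the 3 calls became 5 with a pseudocount of 5, 17 with DESeq2 and 0 to 11 when 1 library was left out. For the difference between sub-groups the 0 calls became 0 to 1, the 1 being Eno2 without wild-type library 1. In each case the cause was not tested.

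Of 852 values of single genes under other settings, 768 kept their direction and side of the threshold, 5 (all Slc2a1) passed it and 79 in 22 genes changed sign. Among these values, DESeq2 fits without 1 library or to the DM22 libraries alone were counted for Slc2a1 only. In such fits with the series term, Egln3 passed without knockout library 1, and Epas1 and Car12 without wild-type library 2. Slc2a3 (0.0049) became −0.060 with quantile normalization, −0.066 with edgeR, −0.071 with DESeq2, −0.016 and −0.011 with these tools and the block, −0.018 and −0.024 with the series, and −0.25 in the DM22 libraries. Egln1 (−0.0010) became 0.014 with quantile normalization, 0.0059 with edgeR, 0.0032 with DESeq2, 0.0029 and 0.0015 with the block and 0.0028 and 0.0010 with the series. Epas1 (0.16) became −0.25 with edgeR, −0.26 with DESeq2, −0.19 and −0.18 with the series and −0.15 in the DM22 libraries. Car9 (−0.14) became 0.16 with edgeR and 0.16 with DESeq2. Quantile normalization gave Pfkp 0.036, Aldoa 0.011 and Pkm2 0.10. The DM22 libraries alone gave Hk1 −0.044, Ldha −0.030, Hif1a −0.043, Bnip3 −0.0048 and P4ha2 −0.0087.

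Leaving out 1 library gave these ranges on the log2 scale: Aldoa −0.20 to 0.041, Aldoc −0.097 to 0.044, Bnip3 −0.011 to 0.033, Car9 −0.85 to 0.32, Egln1 −0.069 to 0.033, Eno1 −0.29 to 0.061, Epas1 −0.41 to 0.94. The ranges also crossed 0 for Ero1l −0.040 to 0.52, Hif1a −0.14 to 0.25, Hk1 −0.039 to 0.18, Kdm3a −0.025 to 0.21, Ldha −0.13 to 0.14, P4ha1 −0.32 to 0.23, Pfkm −0.079 to 0.12. They did so too for Pfkp −0.087 to 0.060, Pgk1 −0.36 to 0.054, Pkm2 −0.17 to 0.058, Slc16a1 −0.21 to 0.071, Slc16a3 −0.47 to 0.29, Slc2a3 −0.34 to 0.24, Vldlr −0.26 to 0.61. Of the genes that kept their sign, the range was 0.18 to 0.79 for Egln3, 0.16 to 0.52 for Vegfa, 0.17 to 0.47 for Pfkfb3, 0.11 to 0.53 for Ankrd37, 0.16 to 0.31 for Car12, −0.68 to −0.32 for Adm, −0.37 to −0.12 for Pdk1, −0.45 to −0.093 for Gapdh and −0.50 to −0.041 for Eno2. Low listed counts limit the fits of Eno1, Slc2a3 and Car9, whose listed levels were the lowest per kilobase. Eno1 also shared 49.5% of its windows with another annotated gene, and the part of this in its level was not tested. The 3 libraries a group limit every call.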
